A study of Mus musculus with 4 samples.

Results

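The genes described here code for the core of the basement membrane. They comprise the laminin chains Lama1, Lama5, Lamb1, Lamb2 and Lamc1, the collagen IV chains Col4a1 and Col4a2, the nidogens Nid1 and Nid2, and Hspg2, which codes for perlecan. They were chosen by name, as the main chains and linkers of this structure, when earlier results of these data were known, and the rule itself uses no measured value. Together they are 10 of 35157 genes with a value, read by 13 of 55681 probes of a mouse whole genome array. The array names Lamb1 as Lamb1-1.

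RNA came from 4 mouse cell populations, each hybridized to 1 array. The line iPS-OSH and the line iPS-J are induced pluripotent stem (iPS) cells, that is, somatic cells returned to a state like that of the early embryo, and both carry the C57BL/6 background. ESC are embryonic stem cells of the 129SV background. MEF are mouse embryonic fibroblasts of the C57BL/6 background. The pluripotent cells were grown with the cytokine LIF in a medium richer in serum than that of MEF, which had no LIF. How the iPS lines were made, and from which cells, is not given in the labels used here. With 1 array per population no difference has a replicate check, so no test was made and no p-value is given. A difference is called here where it was at least 2-fold, which is 1 unit on the log2 scale. Strain and cell type cannot be told apart for ESC. The arrays lay on 1 slide, but MEF, the iPS pair and ESC were scanned in 3 separate sessions, so scan session cannot be told apart from population except between iPS-OSH and iPS-J.

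A basement membrane is a thin sheet of matrix beneath epithelia and endothelia and around muscle, fat and nerve cells. Laminins are trimers of an alpha, a beta and a gamma chain that bind cell surface integrins and dystroglycan and polymerize into a first network. Collagen IV forms a separate, covalently crosslinked network, and nidogens and perlecan link the networks to each other. In the early mouse embryo the primitive endoderm and its parietal and visceral descendants lay down much of this material, and Lama1 is the alpha chain typical of the first basement membranes.

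Col4a1 and Col4a2 lie head to head and are read in opposite directions from a common promoter region. The part that belongs to the promoter windows of both is shown. The promoter windows of RefSeq (build GRCm38.p6, 250 bases before to 50 after each start site) overlap in 78 bases at chr8:11312777-11312854. The sequence below is given on the plus strand. Capitals mark the 22 bases from the Col4a2 start site (11312805, plus strand) to the Col4a1 start site (11312826, minus strand), both included. By these start sites the capitals lie downstream of both, so the annotated transcripts overlap there. No base of the shared part lies upstream of both genes.
Col4a1 and Col4a2, shared part: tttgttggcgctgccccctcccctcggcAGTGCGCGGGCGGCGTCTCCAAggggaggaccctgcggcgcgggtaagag

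G and C made up 73.1% of this shared part, which held 9 CG dinucleotides. The GC box motif GGGCGG lay within the capitals, at 11312812 to 11312817 on the plus strand. RefSeq promoter windows were found for 7 of the 10 genes, namely Lama5, Lamb1, Lamb2, Col4a1, Col4a2, Nid1 and Hspg2. On either strand, GGGCGG occurred in 6 of these 7 windows, all but that of Lamb2, against 35.7% of 32851 promoter windows. The site within the capitals lies in the windows of both Col4a1 and Col4a2, so these windows are not independent. CCAAT occurred in those of Lamb1, Col4a1, Col4a2 and Nid1, against 37.4% of all windows. TATAAA (13.6% of all windows) and GATAA (25.4%) were found in none of the 7, and ATTGT (31.0%) in that of Lamb2 alone. The GC content of the windows was 74.0% for Col4a1, 73.7% for Col4a2, 72.7% for Lama5, 70.3% for Hspg2, 64.7% for Nid1, 63.7% for Lamb1 and 44.0% for Lamb2, against a median of 52.7% over all windows. These are matches of letters and describe the windows only.

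Each probe is 60 bases long, and 8 of the genes were read by 1 probe, Hspg2 by 2 and Nid1 by 3. Where a gene had several probes the brightest stands for it below, and its dimmer probes are given beside it. For Nid1 (chromosome 13) and Hspg2 (chromosome 4) a dimmer probe is shown, since these are the genes with more than 1 probe, and for the other 8 agreement between probes could not be seen. The Nid1 probe maps in pieces across 25855 bases of the mm9 assembly, at chr13:13530138-13555992, and the Hspg2 probe maps to chr4:137125445-137125504, both on the plus strand.
Nid1, probe A_55_P2084303: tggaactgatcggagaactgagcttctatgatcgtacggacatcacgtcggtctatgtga
Hspg2, probe A_55_P1959648: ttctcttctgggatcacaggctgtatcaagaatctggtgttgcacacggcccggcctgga

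All 13 probes were well above background on all 4 arrays and none of their spots was saturated. The scaling value of an array, the 75th percentile of its processed signal, ranged from 1241 to 1765 over the 4 arrays. Probes printed 10 times gave a spot to spot SD of 0.07 log2 units for iPS-OSH, 0.10 for iPS-J, 0.15 for ESC and 0.12 for MEF, which covers noise within an array and not the spread between cultures. The cell labels were checked against markers. All 8 pluripotency markers were at least 2-fold higher in each pluripotent population than in MEF, with summed scaled signals of 266 in iPS-OSH cells, 391 in iPS-J cells and 482 in ESC, against 0.686 in MEF. The place of ESC above iPS-J in these sums rests on Zfp42, with 4.64 for iPS-OSH, 6.80 for iPS-J and 132 for ESC. Fibroblast markers summed to 258 in iPS-OSH cells, 51.5 in iPS-J cells and 42.2 in ESC, against 971 in MEF.

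Levels are given as scaled signal, the processed intensity divided by the 75th percentile of its array. Those of single genes are compared for 1 probe between arrays, never between genes. Summed signals of a marker list add probes of different genes, so the brightest probes weigh most, and are compared between arrays only. In bulk RNA, fewer cells of a type and less RNA per cell cannot be told apart.

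The alpha chains carry the main cell binding site of a laminin. Lama1 had a scaled signal of 4.60 in iPS-OSH cells, 76.5 in iPS-J cells and 14.0 in ESC, against 0.471 in MEF (probe at chr17:68171924-68171983, mm9). It was high in the pluripotent populations and highest in iPS-J, 162-fold above MEF, while iPS-OSH stood 9.76-fold and ESC 29.8-fold above MEF. Among the pluripotent populations iPS-OSH was 3.05-fold below ESC and 16.6-fold below iPS-J, and iPS-J was 5.46-fold above ESC. Lama1 was the one gene of the 10 that was lower in iPS-OSH than in ESC by at least 2-fold, with a log2 difference of -1.61. Every neighbouring pair in the order of its 4 levels differed beyond 1.96 times the spot SD of the difference.

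Lama5 codes for the alpha chain found in most epithelial basement membranes. It had a scaled signal of 7.46 in iPS-OSH cells, 13.9 in iPS-J cells and 7.33 in ESC, against 0.953 in MEF (probe at chr2:179911079-179911138, mm9, minus strand). All pluripotent populations were above MEF, by 7.83-fold in iPS-OSH cells, 14.6-fold in iPS-J cells and 7.69-fold in ESC. iPS-OSH and ESC lay 0.03 log2 units apart, which did not exceed spot noise, and iPS-J was above both by less than 2-fold.

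The beta chains were both lowest in ESC and parted mainly at iPS-J. Lamb1, the beta chain of most embryonic laminins, had a scaled signal of 28.6 in iPS-OSH cells, 59.6 in iPS-J cells and 16.9 in ESC, against 52.0 in MEF (probe at chr12:32014411-32014470, mm9). iPS-J and MEF were at the upper end and did not differ beyond spot noise (0.20 log2 units), and ESC was lowest, 3.07-fold below MEF. The log2 difference was -0.86 for iPS-OSH minus MEF, within 2-fold. Lamb2, the beta chain of the neuromuscular junction and of the mature kidney filter, had a scaled signal of 1.55 in iPS-OSH cells, 1.30 in iPS-J cells and 0.880 in ESC, against 3.16 in MEF (probe at chr9:108392189-108392248, mm9). Each pluripotent population was at least 2-fold lower than MEF, iPS-OSH by 2.03-fold, iPS-J by 2.42-fold and ESC by 3.59-fold. The iPS-OSH value lies at the threshold, and in 3 of 10 other processing settings it was within 2-fold, the smallest log2 difference being -0.91.

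Lamc1 codes for the gamma chain shared by most laminins. It had a scaled signal of 27.9 in iPS-OSH cells, 62.0 in iPS-J cells and 22.0 in ESC, against 18.0 in MEF (probe at chr1:155066156-155066215, mm9, minus strand). iPS-J stood apart, at 3.44-fold above MEF, 2.82-fold above ESC and 2.22-fold above iPS-OSH. ESC and MEF did not differ beyond spot noise, and iPS-OSH minus MEF was 0.63 log2 units.

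**Figure D1:**
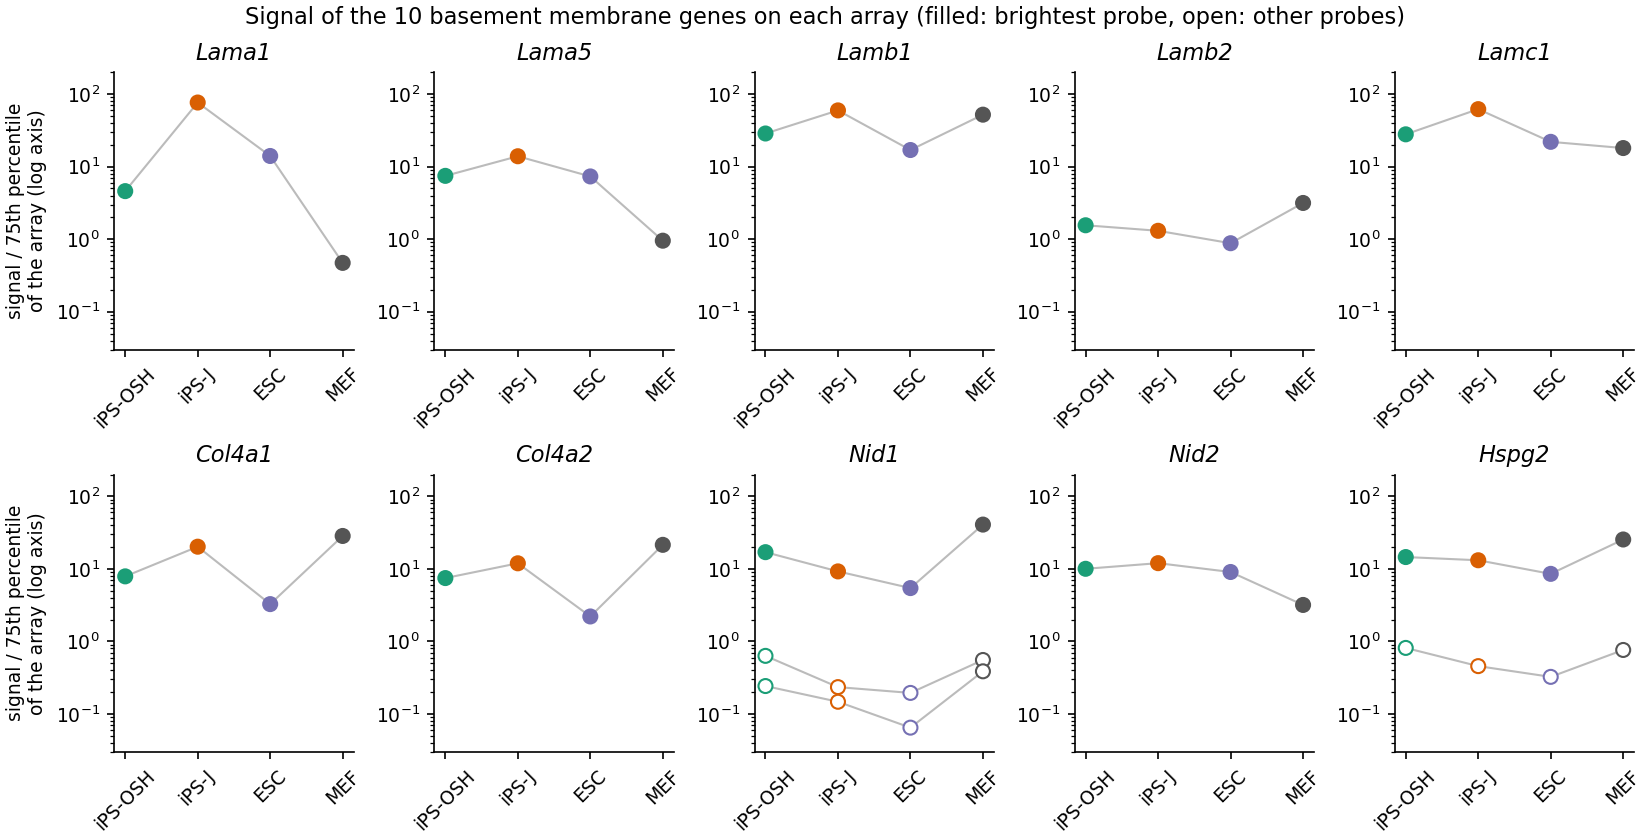
Scaled signal of each gene (log axis, processed signal divided by the 75th percentile of the array) on the iPS-OSH, iPS-J, ESC and MEF arrays, with the brightest probe filled and other probes open. Lama1 reaches 76.5 in iPS-J, against 0.471 in MEF, and the collagen IV genes are lowest in ESC. Heights are read within a panel, since levels of different probes are not comparable.

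Collagen IV was lowest in ESC and highest in MEF for both chains. Col4a1 had a scaled signal of 7.89 in iPS-OSH cells, 20.2 in iPS-J cells and 3.27 in ESC, against 28.4 in MEF (probe at chr8:11199009-11199068, mm9, minus strand). It was 3.61-fold lower in iPS-OSH and 8.70-fold lower in ESC than in MEF, and the log2 difference of iPS-J from MEF was -0.49, within 2-fold. The probe of Col4a1 is printed 10 times on each array, and 2 of its spots on the iPS-J array were left out as outlying. The spots averaged 7.89 ± 0.234 in iPS-OSH cells (SD over 10 spots), 20.3 ± 1.11 in iPS-J cells (8 spots) and 3.29 ± 0.348 in ESC (10 spots), against 28.5 ± 2.57 in MEF (10 spots). No spots of different arrays overlapped, the nearest being the highest in iPS-J at 21.6 and the lowest in MEF at 24.3.

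Col4a2 is the partner chain, read in the opposite direction. It had a scaled signal of 7.47 in iPS-OSH cells, 11.9 in iPS-J cells and 2.21 in ESC, against 21.5 in MEF (probe at chr8:11448840-11448899, mm9). It kept the order seen for Col4a1, with MEF highest, then iPS-J, iPS-OSH and ESC. ESC was 9.71-fold and iPS-OSH 2.87-fold below MEF, while iPS-J was 1.80-fold below it. Against ESC, Col4a2 was 3.38-fold higher in iPS-OSH and 5.41-fold higher in iPS-J, and Col4a1 was 2.41-fold higher in iPS-OSH and 6.19-fold higher in iPS-J. The centred profiles of the pair over the 4 arrays lay 0.50 log2 units apart (Euclidean distance), the second smallest distance among the 10 genes after Lamb2 and Hspg2 at 0.25. The distance was largest for Lama1 and Nid1, at 7.24.

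The nidogens lay on opposite sides of MEF in the pluripotent populations. Nid1, read by its brightest probe at chr13:13604435-13604494 (mm9), had a scaled signal of 17.0 in iPS-OSH cells, 9.23 in iPS-J cells and 5.44 in ESC, against 40.8 in MEF. It was lower than in MEF by 2.40-fold in iPS-OSH cells, 4.42-fold in iPS-J cells and 7.50-fold in ESC. The other probes did not all show this for iPS-OSH. A_55_P2115713 (chr13:13602780-13602839) had 0.632 in iPS-OSH cells, 0.235 in iPS-J cells and 0.195 in ESC, against 0.555 in MEF, and A_55_P2084303, whose sequence is given above, had 0.243 for iPS-OSH, 0.147 for iPS-J and 0.0648 for ESC, against 0.387 for MEF. The 3 probes thus gave iPS-OSH minus MEF log2 differences of -1.26, 0.19 and -0.67. For ESC minus MEF they gave -2.91, -1.51 and -2.58, so the size of that difference also depends on the probe. iPS-J and ESC were at least 2-fold lower than MEF with all 3, and iPS-OSH was at least 2-fold higher than ESC with all 3 (1.64, 1.70 and 1.90 log2 units).

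Nid2 had a scaled signal of 10.0 in iPS-OSH cells, 12.0 in iPS-J cells and 9.06 in ESC, against 3.18 in MEF (probe at chr14:20630490-20630549, mm9). The pluripotent populations lay close together and all above MEF, by 3.15-fold in iPS-OSH cells, 3.77-fold in iPS-J cells and 2.85-fold in ESC. iPS-OSH and ESC did not differ beyond spot noise. With spike-in scaling the log2 difference of ESC from MEF was 0.98, just within 2-fold, in place of 1.51.

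Hspg2, the heparan sulfate proteoglycan perlecan, had a scaled signal of 14.6 in iPS-OSH cells, 13.1 in iPS-J cells and 8.54 in ESC, against 25.4 in MEF (brightest probe at chr4:137126392-137126451, mm9). MEF was highest and ESC lowest, 2.98-fold below MEF, and with this probe the iPS lines were within 2-fold of MEF and did not differ from each other beyond spot noise. The dimmer probe A_55_P1959648, printed above, had 0.814 in iPS-OSH cells, 0.457 in iPS-J cells and 0.325 in ESC, against 0.763 in MEF. It put iPS-OSH minus MEF at 0.09 log2 units, in place of -0.80 with the brightest probe, and iPS-OSH minus iPS-J at 0.83, beyond spot noise, in place of 0.15. It also put iPS-OSH at least 2-fold above ESC, by 1.33 log2 units in place of 0.77.

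**Figure D2:**
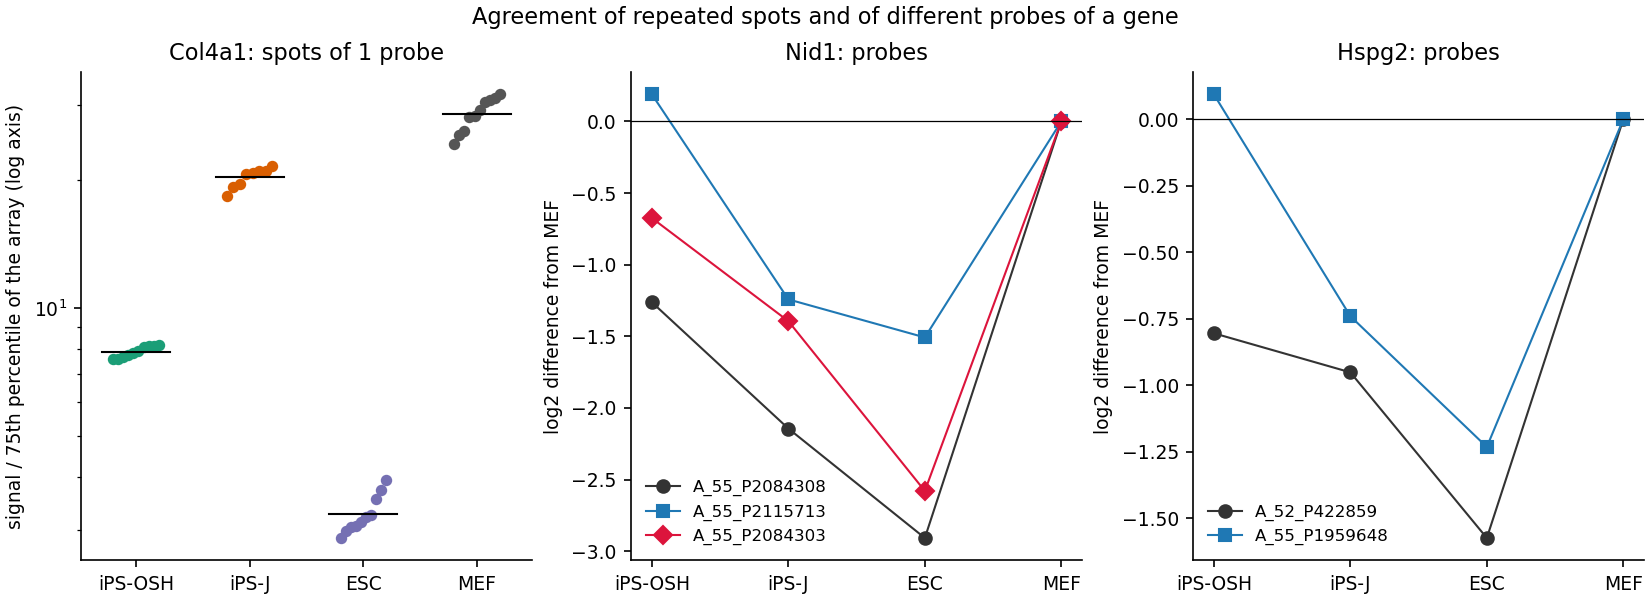
Left, scaled signal of each Col4a1 spot (log axis, sorted by value within an array) with its mean as a line: the spots of the 4 arrays do not overlap. Centre and right, log2 difference from MEF on each array for the 3 Nid1 and the 2 Hspg2 probes, with MEF at 0 by construction: the probes part most at iPS-OSH, where Nid1 gives -1.26, -0.67 and 0.19. The Nid1 probes part nearly as far at ESC, with -2.91, -2.58 and -1.51.

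Set against MEF, the pluripotent populations had more signal of the alpha chains and Nid2 and mostly less of Lamb2, collagen IV and Nid1. In iPS-OSH, 3 of the 10 genes were at least 2-fold higher than in MEF (Lama1, Lama5 and Nid2), where 12.8% of all genes compared were. Another 4 were at least 2-fold lower (Lamb2, Col4a1, Col4a2 and Nid1), where 23.4% of all genes were. In iPS-J, Lama1, Lama5, Lamc1 and Nid2 were higher, 4 of 10 against 16.2% of all genes, and Lamb2 and Nid1 were lower, 2 of 10 against 24.6%. The lower count was 3 with normexp background correction, 4 with spike-in scaling and 5 with the unscaled deposited table, so it depends on the processing. In ESC, Lama1, Lama5 and Nid2 were higher, 3 of 10 against 22.1%, and 6 of 10 were lower against 16.5%, namely Lamb1, Lamb2, Col4a1, Col4a2, Nid1 and Hspg2. The median log2 difference of the 10 genes was -0.83 for iPS-OSH, -0.15 for iPS-J and -1.60 for ESC, beside medians over all genes of -0.32 for iPS-OSH, -0.23 for iPS-J and 0.11 for ESC. The 3 comparisons share the MEF array. Lama1, Lama5, Lamc1 and Nid2 were above MEF and Lamb2, Col4a1, Col4a2, Nid1 and Hspg2 below it in every pluripotent population, and Lamb1 was below it in iPS-OSH and ESC and above it in iPS-J. The direction of Lamb1 in iPS-J turned with the scaling, that of Lamc1 in ESC with the scaling and with normexp background correction, and those of Nid1 and Hspg2 in iPS-OSH with the choice of probe. Markers of fibroblasts were at least 2-fold lower than in MEF for 7 of 8 in iPS-OSH and for 8 of 8 in iPS-J and in ESC, those of smooth muscle were lower for 5 of 5 in each, and those of epithelium were higher for 4 of 5 in each. Summed epithelial signal was 22.1 for iPS-OSH, 53.5 for iPS-J and 31.5 for ESC, against 2.27 for MEF, where Cdh1 and Epcam were not well above background. Of 13 markers of primitive and visceral endoderm 6 were higher and 2 lower than in MEF for iPS-OSH. The numbers were 10 and 1 for iPS-J and 7 and 2 for ESC. Of 6 markers of parietal endoderm none was at least 2-fold higher than in MEF. Those lower were 3 for iPS-OSH, 4 for iPS-J and 5 for ESC. The part of these cell types in the values was not tested.

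**Figure D3:**
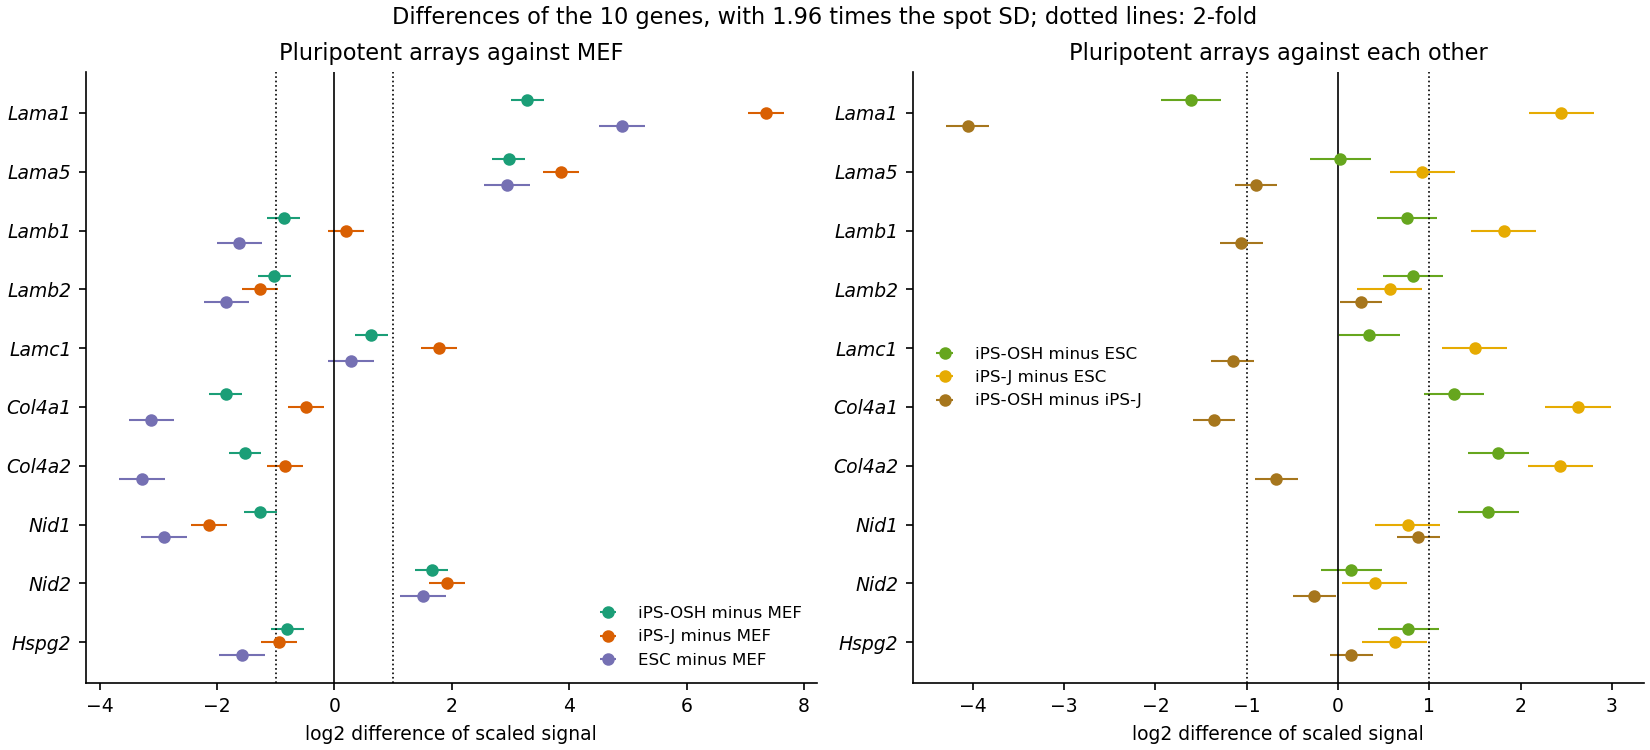
Log2 difference of scaled signal for each gene, with bars of 1.96 times the spot SD of the difference and dotted lines at 2-fold. Left, iPS-OSH, iPS-J and ESC minus MEF, where Lama1 reaches 7.34 in iPS-J and Col4a2 -3.28 in ESC. Right, the pluripotent populations against each other, where all 10 differences of iPS-J minus ESC are above 0.

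The comparison of iPS-J with ESC gave the most even picture. All 10 genes had more signal in iPS-J, by 0.40 to 2.63 log2 units, and 5 were at least 2-fold higher, where 5.39% of 29581 genes were. They were Col4a1 at 2.63, Lama1 at 2.45, Col4a2 at 2.43, Lamb1 at 1.81 and Lamc1 at 1.50 log2 units, which includes an alpha, a beta and a gamma chain and both collagen IV chains. Col4a1 exceeded 99.6% of all genes compared, Lama1 99.5%, Col4a2 99.4%, Lamb1 98.8% and Lamc1 98.0%. None of the 10 genes was at least 2-fold lower, where 24.1% of all genes were. The median of the 10 genes was 1.21, beside -0.20 over all genes.

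Markers of primitive and visceral endoderm also had more signal in iPS-J than in ESC. Of 12 such markers compared, 10 were at least 2-fold higher in iPS-J than in ESC and none was lower, with a median of 2.74 log2 units. Their summed scaled signal was 74.3 in iPS-J, against 7.96 in ESC, and it was 5.89 in iPS-OSH and 9.98 in MEF. The MEF sum rests on Pdgfra, which had 6.44 there, against 0.523 for ESC. The median level of the list was lowest for MEF, at 0.0681, against 0.475 for ESC. The largest differences were those of Sox7 (3.28 in iPS-J, against 0.226 in ESC), Gata4 (8.97, against 0.629), Cubn (32.1, against 2.65) and Gata6 (5.10, against 0.475). Sox7, Gata4 and Gata6 are transcription factors of the primitive endoderm and Cubn is an endocytic receptor of the visceral endoderm. Of the 13 markers on the array, Afp was not well above background on any pluripotent array and Apoa1 was not on the iPS-J array. Of 6 markers of parietal endoderm, Sparc and Snai1 were at least 2-fold higher in iPS-J than in ESC (1.35 and 1.07 log2 units), while the other 4 were within 2-fold and the median was 0.61. The summed signal of the list was 220 in iPS-J, against 88.9 in ESC, and Sparc alone gave 212 in iPS-J, against 83.6 in ESC. Of the 8 fibroblast markers 0 were at least 2-fold different between iPS-J and ESC. Smooth muscle markers were higher for 4 of 5 and lower for 1, with sums of 47.3 for iPS-J and 19.0 for ESC, and of 5 epithelial markers Krt8 and Krt18 were higher. The part of these cell types in the basement membrane values was not tested.

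In iPS-OSH, 3 genes were at least 2-fold higher than in ESC, where 8.76% of 30563 genes were. The count was 5 with normexp background correction and 6 with spike-in scaling or the unscaled deposited table, which take in Lamb1 and Hspg2 and, in the last 2 settings, Lamb2. Col4a2 (1.76 log2 units), Nid1 (1.64) and Col4a1 (1.27) made up the group of 3 as reported. The only gene at least 2-fold lower was Lama1, where 26.5% of all genes were lower. The other 6 genes lay between 0.03 (Lama5) and 0.82 (Lamb2) log2 units above ESC, and the median of the 10 genes was 0.76, beside -0.28 over all genes. Fibroblast markers differed between these populations too. All 8 exceeded the ESC level in iPS-OSH by at least 2-fold, with a median of 2.43 log2 units and summed signals of 258 for iPS-OSH and 42.2 for ESC. Among them Twist2, a mesenchymal transcription factor, had 12.9 in iPS-OSH, against 0.647 in ESC, and Thy1, a surface glycoprotein of fibroblasts, had 98.1, against 13.7. Smooth muscle markers were at least 2-fold higher for 4 of 5, with sums of 216 for iPS-OSH and 19.0 for ESC. Of 6 parietal endoderm markers 4 were higher, led by Fst (3.13 log2 units) and Thbd (2.96), and 1 was lower. Their median was 2.56 log2 units, with sums of 191 for iPS-OSH and 88.9 for ESC, against 351 for MEF. The 4 higher ones, Fst, Thbd, Plat and Snai1, each had their highest signal in MEF. Of 12 primitive and visceral endoderm markers 1 was higher and 5 were lower. The part of these cells in the basement membrane values was not tested.

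Between the iPS lines, which share strain and scan session, 4 of the 10 genes were at least 2-fold lower in iPS-OSH than in iPS-J, where 7.28% of 29240 genes were. These were Lama1 (-4.06 log2 units), Col4a1 (-1.36), Lamc1 (-1.15) and Lamb1 (-1.06). None was at least 2-fold higher, where 8.22% of all genes were, and the highest difference was that of Nid1 at 0.88. Lama1 stood at percentile 0.130 of all genes compared, at the low end. The median of the 10 genes was -0.79, beside 0.00 over all genes. Lamb1 and Lamc1 were within 2-fold in 4 of 10 other settings, at log2 differences no smaller in size than 0.72 and 0.82. Primitive and visceral endoderm markers were at least 2-fold lower in iPS-OSH for 10 of 12, and fibroblast markers were higher for 8 of 8. Parietal endoderm markers were higher for 4 of 6 (Fst, Thbd, Plat and Snai1, all highest in MEF) and lower for 1 (median 1.78 log2 units). Smooth muscle markers were higher for 5 of 5 (median 2.22). Their part in these values was not tested.

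Among the 3 pluripotent arrays ESC was lowest for 9 of the 10 genes, all but Lama1, while ESC was lowest for 32.0% of 24302 genes well above background on all 4 arrays. iPS-J was highest for 7 of the 10, all but Lamb2, Nid1 and Hspg2, against 30.3% of these genes. For Lama5 and Nid2, counted among the 9, ESC and iPS-OSH did not differ beyond spot noise. ESC was lowest for 7 to 9 of the 10 and iPS-J highest for 6 or 7 of them under each other scaling, background correction or choice of probe that was tallied. The count for ESC was 7 with quantile normalization and with scaling over probes well above background on all 4 arrays, where iPS-OSH was lowest for Lama5 and Nid2. The range over the 4 arrays had a median of 5.32-fold for the 10 genes and of 2.48-fold over the 24302 genes.

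**Figure D4:**
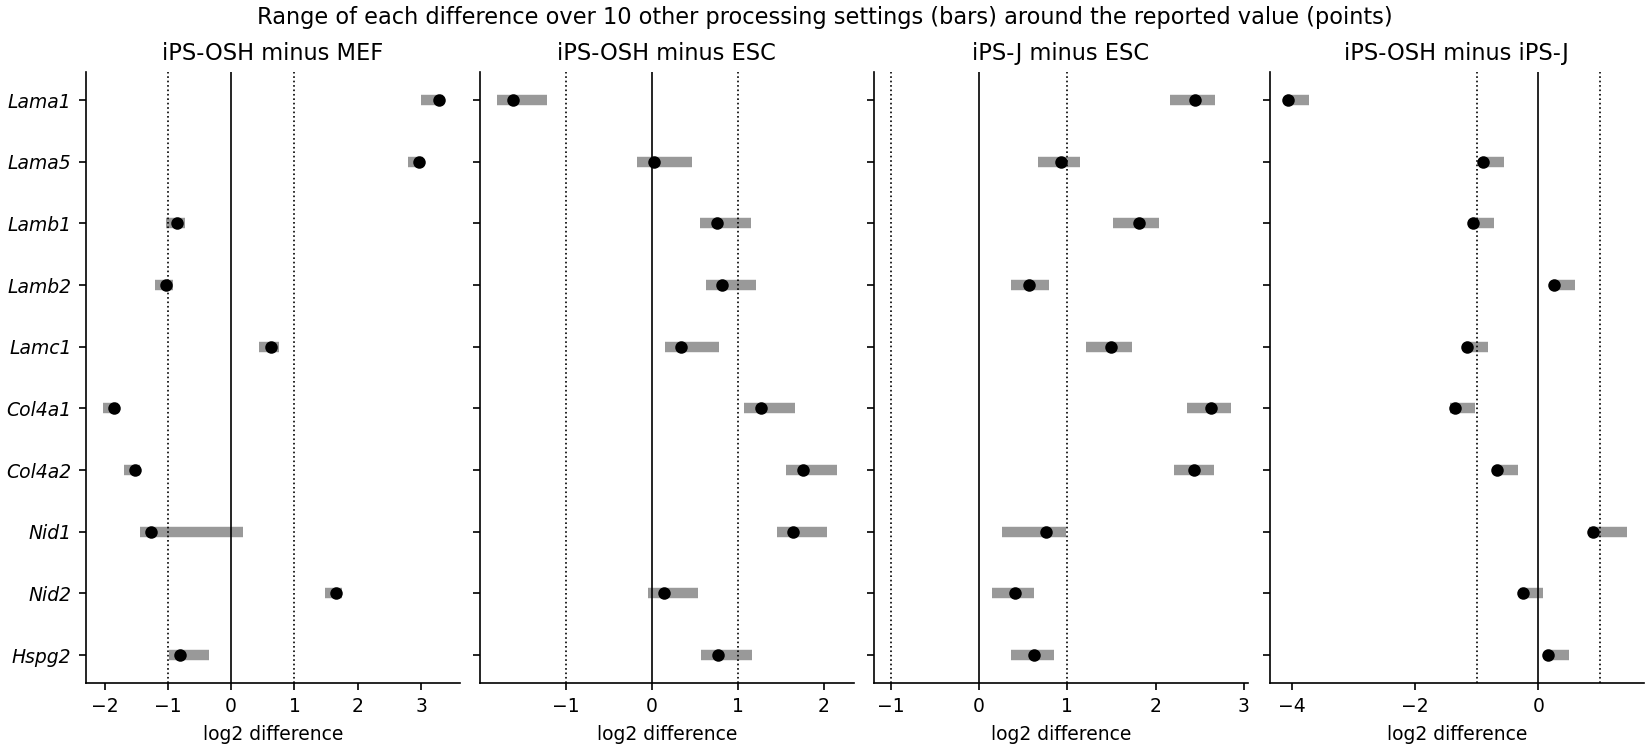
Log2 difference of each gene as reported (points) in iPS-OSH minus MEF, iPS-OSH minus ESC, iPS-J minus ESC and iPS-OSH minus iPS-J, with the range over this value and 10 other processing settings as bars and dotted lines at 2-fold. The widest bar drawn is that of Nid1 in iPS-OSH minus MEF, from -1.44 to 0.19, and the 5 genes called in iPS-J minus ESC stay above 2-fold throughout.

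Genes with the most similar profile were sought among 9798 genes outside the group that were well above background on all 4 arrays and spanned at least 2-fold. The measure was the Euclidean distance between centred log2 profiles over the 4 arrays, and a profile over so few arrays sets genes apart only coarsely. For Lama1 the nearest were Plbd1 (0.52), Foxq1 (0.62) and Amn (0.63), the last a binding partner of cubilin in the visceral endoderm, with 0.593 in iPS-OSH cells, 12.4 in iPS-J cells and 1.26 in ESC, against 0.0681 in MEF. For Col4a1 they were Fhdc1 (0.47), Tent5a (0.48) and Alg8 (0.55), and for Col4a2 they were Iqsec3 (0.43), Glipr1 (0.46) and Alg8 (0.47). Col4a1 and Col4a2 were thus about as near to these genes as to each other. The nearest gene lay within 0.15 log2 units of each of the other 7, at Mir205hg for Lama5, Fam71e1 for Lamb1, Trim55 for Lamb2, Ppargc1b for Lamc1, Leng9 for Nid1, Notch3 for Nid2 and Prkag1 for Hspg2.

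The laminin chains outside the group followed other patterns. Of 6 such chains 5 were on the array as named. Lama2, the alpha chain of muscle, had 0.522 in iPS-OSH cells, 0.166 in iPS-J cells and 0.261 in ESC, against 3.32 in MEF. Lama4, the alpha chain of vessel walls, had 1.41 in iPS-OSH cells, 0.374 in iPS-J cells and 0.417 in ESC, against 6.82 in MEF. Both were high in MEF, the reverse of Lama1 and Lama5, and both were higher in iPS-OSH than in the other pluripotent populations. Lama3, the alpha chain of skin, was higher than in MEF by 2.13 log2 units for iPS-OSH, 1.58 for iPS-J and 1.22 for ESC. None of the 5 differed by 2-fold between iPS-J and ESC, whereas 5 of the 10 core genes did. In iPS-OSH 3 of the 5 were at least 2-fold higher than in ESC and Lamb3 was lower. Of all genes 8.76% were higher and 26.5% lower there. Of the collagen IV chains of restricted tissues, Col4a6 had 0.400 in iPS-OSH and 0.449 in iPS-J, against 1.55 in ESC and 1.55 in MEF. It was thus lower in both iPS lines than in ESC, unlike Col4a1 and Col4a2. Col4a4 was within 2-fold in all comparisons and Col4a3 was not well above background on any array.

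Among 17 other basement membrane components, the numbers at least 2-fold higher and lower than in MEF were 2 and 5 for iPS-OSH, 3 and 7 for iPS-J and 2 and 7 for ESC, of 16 compared. Over all genes the shares higher and lower were 12.8% and 23.4% for iPS-OSH, 16.2% and 24.6% for iPS-J and 22.1% and 16.5% for ESC. Smoc2, a calcium-binding matrix protein, had 2.15 in iPS-OSH cells, 0.368 in iPS-J cells and 0.180 in ESC, against 29.4 in MEF. Fbln2, an elastic fibre and basement membrane protein, had 78.4 in iPS-OSH cells, 14.8 in iPS-J cells and 8.46 in ESC, against 168 in MEF. The relative of Smoc2, Smoc1, was the opposite, with 1.05 in iPS-OSH cells, 1.14 in iPS-J cells and 1.61 in ESC, against 0.166 in MEF. Between iPS-J and ESC 4 of 13 were higher and 2 lower, led by Sparc, a collagen IV binding protein, at 212 in iPS-J, against 83.6 in ESC. The rest of the 4 lay near the threshold, from 1.03 (Smoc2) to 1.13 (Ntn1) log2 units. Of the 2 lower, Fras1 was not well above background in iPS-J, so its difference is a bound. The shares over all genes were 5.39% higher and 24.1% lower.

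Of 12 receptors for basement membranes, 3 were higher and 1 lower in iPS-OSH than in MEF, 4 and 5 in iPS-J, and 5 and 5 in ESC, to be read against the same shares over all genes. Itga6, a laminin-binding integrin chain, had 14.1 in iPS-OSH cells, 22.6 in iPS-J cells and 18.2 in ESC, against 5.22 in MEF. Itga1, a collagen-binding integrin chain, had 0.242 in iPS-OSH cells, 0.0807 in iPS-J cells and 0.0529 in ESC, against 0.609 in MEF. Itgb1, the beta chain that pairs with both, had 9.19 in iPS-OSH cells, 3.47 in iPS-J cells and 2.09 in ESC, against 17.1 in MEF. Bcam, a receptor for the Lama5 chain, had 1.57 in iPS-OSH and 1.84 in iPS-J, against 0.480 in ESC and 0.163 in MEF. In the comparison of iPS-J with ESC it was the 1 receptor of 11 that was at least 2-fold higher, and Sdc4 the 1 that was lower. Among all genes 5.39% were higher and 24.1% lower in this comparison.

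Most enzymes and chaperones of collagen synthesis had their highest signal in MEF, as collagen IV did, while Plod2 was highest in iPS-J. Of 17 compared, none was at least 2-fold higher than MEF in any pluripotent population, while 11 were lower for iPS-OSH, 8 for iPS-J and 15 for ESC. The shares of all genes lower were 23.4% for iPS-OSH, 24.6% for iPS-J and 16.5% for ESC. Those higher were 12.8% for iPS-OSH, 16.2% for iPS-J and 22.1% for ESC. Serpinh1, the collagen chaperone, had 20.7 in iPS-OSH cells, 25.7 in iPS-J cells and 6.57 in ESC, against 108 in MEF. Loxl2, a lysyl oxidase that crosslinks collagen IV, had 4.28 in iPS-OSH cells, 4.53 in iPS-J cells and 2.25 in ESC, against 28.3 in MEF. Between iPS-J and ESC 7 were higher and none lower, with a median of 0.81 log2 units, led by Serpinh1 (1.97) and the lysyl hydroxylase Plod2 (1.61). The rest of the 7 lay near the threshold, from 1.01 (Loxl2) to 1.17 (Plod1) log2 units. Their count under other settings is not given here. Of all genes 5.39% were higher and 24.1% lower in that comparison. Plod2 had 2.00 for iPS-OSH, 6.71 for iPS-J and 2.20 for ESC, against 3.52 for MEF. Of 13 genes of heparan sulfate synthesis, which builds the side chains of perlecan, none was at least 2-fold higher than MEF. At least 2-fold lower were 4 for iPS-OSH, 7 for iPS-J and 8 for ESC. The count for iPS-OSH is near the share over all genes. The widest difference was that of the sulfotransferase Hs6st2, with 3.02 in iPS-OSH cells, 0.560 in iPS-J cells and 0.408 in ESC, against 14.1 in MEF.

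**Figure D5:**
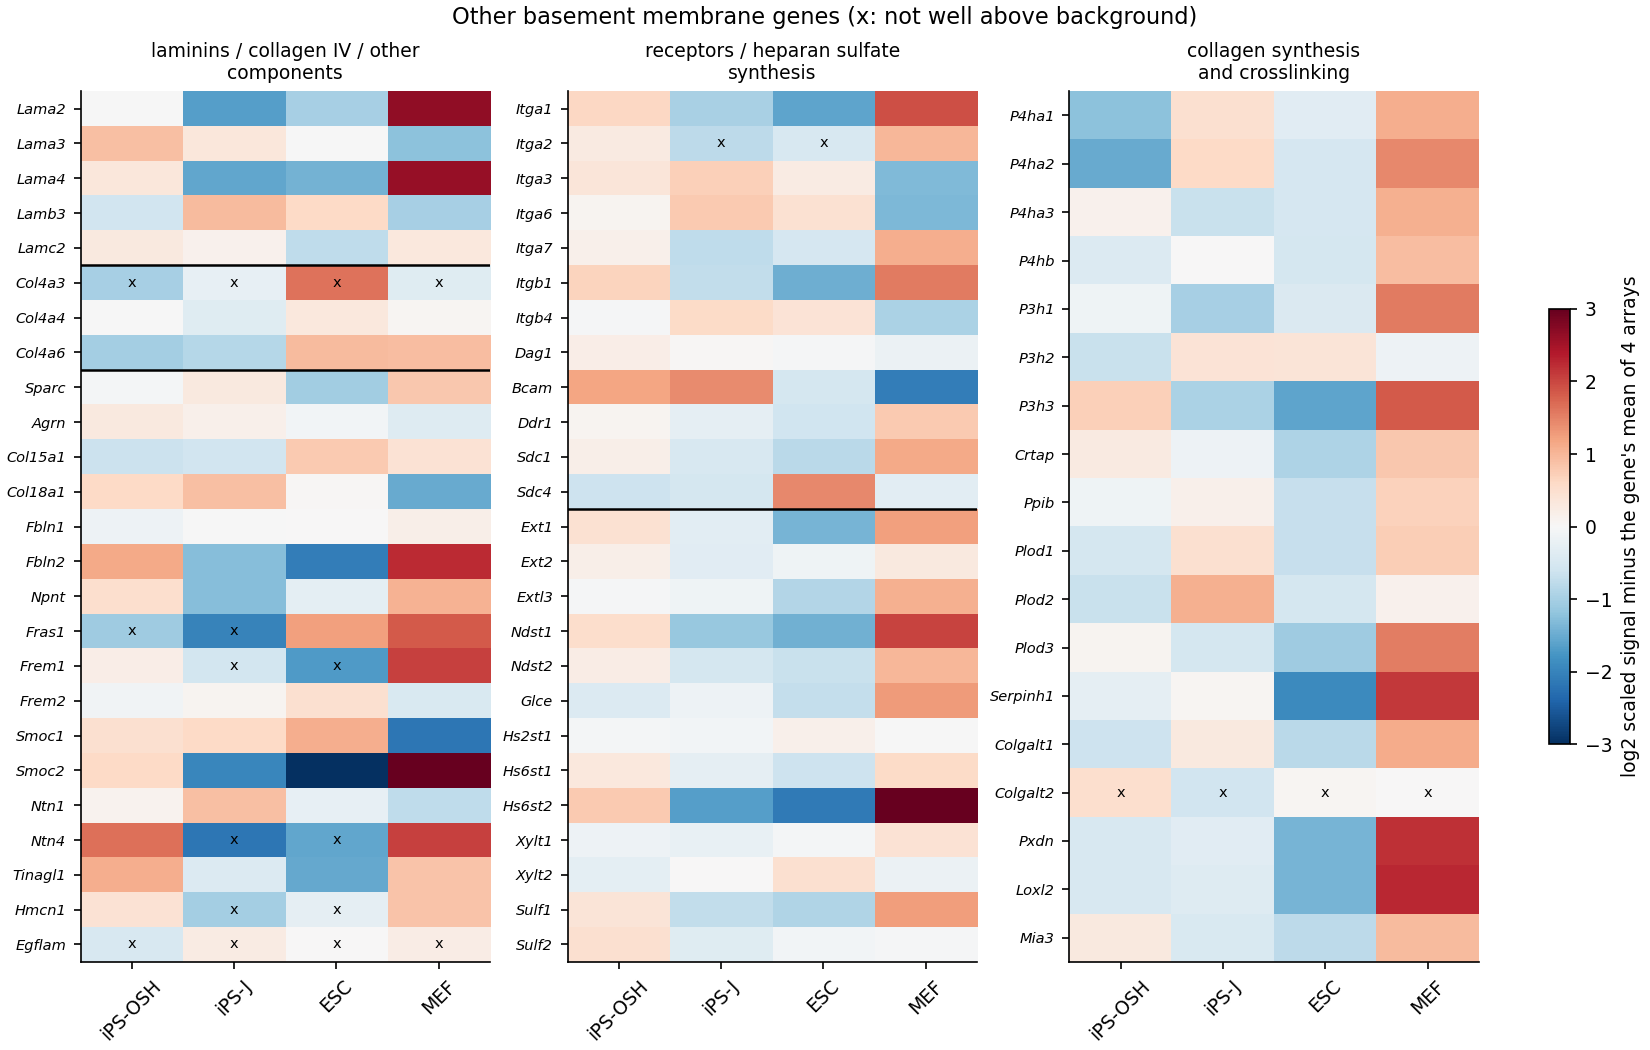
Log2 scaled signal of other basement membrane genes on the iPS-OSH, iPS-J, ESC and MEF arrays, each minus the mean of its gene over the 4 arrays (colour scale limited to 3 units either way), with x where a probe was not well above background. Most genes of collagen synthesis are highest (red) in MEF, and Lama2 and Lama4 are high in MEF where Lama3 is low.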

How the data were processed

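RNA was labelled with Cy3 and hybridized to 1-colour Agilent arrays, per the labels. The deposited scanner output holds each spot's intensity, background-subtracted within the array by Agilent Feature Extraction 10.5.1.1 with the arrays not normalized to each other, per the file headers. The deposited value table holds the same intensity, within 0.497%.

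Here spots called uneven or outlying were left out, and the log2 processed signal was scaled by the 75th percentile over all 59305 non-control spots of its array. The brightest probe stood for a gene. A gene was compared if well above background on at least 1 array of the pair. Where it was so on 1 only, the difference is a bound against the lowest detected signal, and a bound of the wrong sign was counted as no difference. Spot SD is the median over those of the 399 probes printed 10 times that were well above background on the array. These were 340 for iPS-OSH, 309 for iPS-J, 350 for ESC and 357 for MEF. Gene names came from RefSeq where matched, and probe coordinates are those of the files (mm9), and exon or UTR are not given, as no mm9 annotation was used here. Files were read in Python 3.11.15, and normexp was run in limma 3.58.1. The calls were tested on simulated data, where the lowered genes that were missed were ones below detection on 1 array, which have bounds. None of the 10 genes has a bound.

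All 10 genes and all their probes are named. Genes named from a wider list are among the 4 with the largest difference of their list in at least 1 of the 6 comparisons, and not all of these are named. Afp and Apoa1, outside this rule, were named after their values were seen, as not well above background. For each of the 10 genes up to 3 of the nearest profiles are named. The genes and lists were chosen with earlier results of these data known. Of 11 alternatives tried, 2 (the percentile over the spots kept, and over probes) were added after seeing the data.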

Additional observations from a re-analysis of the deposited data

Results flagged for a closer look

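Lamb1 was the 1 gene of the 10 that lay on different sides of MEF in different pluripotent populations. Its log2 difference from MEF was -0.86 for iPS-OSH and -1.62 for ESC, against 0.20 for iPS-J. All 3 comparisons share the MEF array. The difference between these effects was not tested, since each population has 1 array. The iPS-J value was 1.25 times the spot SD of the difference, and it turned negative with spike-in scaling and with the unscaled deposited table, where it was lowest at -0.31. The lower level in iPS-OSH and ESC than in iPS-J does not depend on MEF and was at least 2-fold in ESC under all 10 other settings.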

How the results depend on the processing

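Each of the 60 differences (10 genes in 6 comparisons) was recomputed under 10 other settings. Of the 600 values 422 moved by under 1 spot SD, 177 moved by more, and 1 changed sign after being at least 2-fold. This was Nid1 in iPS-OSH minus MEF, at 0.19 with the median over its probes. Of 350 values of differences called at first, 349 kept their sign and 337 stayed at least 2-fold.

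Counts moved as follows. Genes higher in iPS-OSH than in ESC were 3 as reported, 5 with normexp, 6 with spike-in scaling and 6 with the unscaled deposited table. Genes lower in iPS-OSH than in iPS-J were 4, and 2 with each of these 3 settings and with quantile normalization. Genes lower in iPS-J than in MEF were 2, and 3 with normexp, which adds Hspg2. They were 4 with spike-in scaling and 5 with the deposited table, which add Col4a2 and Hspg2 and, in the table, Col4a1. Of those lower in iPS-OSH than in MEF, Lamb2 was within 2-fold in 3 settings and Nid1 with the median over probes. The deposited table added Lamb1 there. Lama5 joined the genes higher in iPS-J than in ESC with normexp and with spike-in scaling. Genes higher in iPS-OSH than in iPS-J were 0, and 1 with spike-in scaling, the deposited table or the median over probes. At 4-fold the counts lower than MEF were 0 in iPS-OSH cells, 1 in iPS-J cells and 3 in ESC, those higher than MEF in iPS-J 2, those in iPS-OSH against ESC 0 in either direction, those higher in iPS-J than in ESC 3 and those lower in iPS-OSH than in iPS-J 1.

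Spike-in scaling put the median of all genes at -0.39 in ESC minus MEF (0.11 as reported) and at -0.53 in iPS-J minus MEF (-0.23 as reported), and the unscaled table put iPS-J minus MEF at -0.73. The median of the 10 genes in iPS-OSH minus MEF was -0.08 with the median over probes, in place of -0.83. The cause of these changes was not tested. The number of arrays, 1 per population, limits every difference. No array could be left out, and no paired analysis was possible because no replicates exist.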
